A study of Mus musculus with 32 samples.

Results

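The 6 genes Msln, Upk3b, Upk1b, Wt1, Lrrn4 and Krt19, which mark the mesothelium, were followed through 32 libraries of RNA from sorted mouse gut nuclei. They were taken by name, as 6 of the 51912 gene identifiers in the deposited table, and all 6 were present. Every mouse was of strain C57BL/6, was kept specific pathogen free and had received AAV9-CaMKII-EGFPKASH through a vein 5 weeks earlier, so no group lacks the virus. This adeno-associated virus makes an EGFP that sits on the nuclear envelope in cells where its CaMKII promoter is active. Nuclei from the longitudinal muscle layer, peeled off together with the myenteric plexus, were sorted into EGFP+ nuclei, labelled neuronal, and EGFP- nuclei, labelled non-neuronal. Mice were housed at the University of Bern or at the Francic Crick Institute (spelled as in the labels), and colon and small intestine (SI) were taken from each. Facility, segment and sort gave 8 groups of 4 libraries: Bern colon, Bern SI, Crick colon and Crick SI, each neuronal and non-neuronal. The EGFP- gate holds whatever lacks EGFP: a sum of 8 pan-neuronal genes was 30.7 to 1490 CPM (a gene's count per 1000000 counts of its library) there and 1489 to 4715 CPM in EGFP+ libraries. No label names the mesothelium or gives an animal's age, and none says that the 4 libraries of a group are separate animals, so p-values measure only the spread between libraries, which may be technical.

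The mesothelium is the sheet of flat cells that lines the body cavities, and on the gut it forms the outer surface of the serosa, just outside the longitudinal muscle. Its cells come from mesoderm but carry keratins, and they make a smooth, lubricated surface. Msln encodes mesothelin, a protein anchored to the cell surface that binds the large mucin encoded by Muc16. Upk3b and Upk1b encode uroplakins, membrane proteins best known from the lining of the bladder. Wt1 encodes a zinc finger transcription factor of the mesothelium and the developing kidney, Lrrn4 a membrane protein with leucine-rich repeats, and Krt19 a keratin that simple epithelia, the gut lining among them, also make.

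On GRCm38 with the GENCODE M21 annotation, Msln lies at chr17:25748613-25754378 on the minus strand and Upk3b at chr5:136038496-136046487 on the plus strand. Upk1b lies at chr16:38773184-38800328 (minus), Wt1 at chr2:105126529-105173616 (plus), Lrrn4 at chr2:132868305-132880891 (minus) and Krt19 at chr11:100140810-100148665 (minus). All 6 are protein coding, counts are over their exons, and no other annotated gene overlaps any of them. The antisense gene Wt1os, on the minus strand, starts at position 105126510 of chromosome 2, next to the start of Wt1 on the plus strand. Promoter sequences from RefSeq (GRCm38.p6) matched 2 of the 6 genes, Lrrn4 and Upk3b, and are shown because these are the promoters held here of genes that were low in the same libraries. Each is the 250 bases before the RefSeq start, 5′ to 3′ on the gene's strand, at chr2:132880863-132881112 for Lrrn4 and chr5:136038246-136038495 for Upk3b, with matches to the searched motifs in capitals. The RefSeq start of Lrrn4 lies inside the GENCODE gene, so the last bases of its window overlap the gene's GENCODE span, and motif distances are from the RefSeq start.
Lrrn4: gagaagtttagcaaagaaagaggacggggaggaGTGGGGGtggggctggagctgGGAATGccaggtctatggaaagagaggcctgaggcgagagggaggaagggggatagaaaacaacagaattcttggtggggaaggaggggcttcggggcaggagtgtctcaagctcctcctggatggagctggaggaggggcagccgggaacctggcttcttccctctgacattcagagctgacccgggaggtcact
Upk3b: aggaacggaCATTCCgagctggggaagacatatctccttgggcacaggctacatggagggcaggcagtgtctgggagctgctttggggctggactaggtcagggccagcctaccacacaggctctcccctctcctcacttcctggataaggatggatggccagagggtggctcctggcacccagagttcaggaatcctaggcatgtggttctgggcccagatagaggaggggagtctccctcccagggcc
Both windows hold the letters of a TEAD motif, GGAATG on either strand, starting 196 bases before the Lrrn4 start and, as its reverse complement, 241 bases before the Upk3b start. These letters occur in 12.6% of all 32851 RefSeq promoters of the same length. The Lrrn4 window also has GTGGGNG, the core shared by WT1 and EGR factors (28.1% of promoters), and neither window has the Sp and KLF box GGGCGG (32.7%). The motifs do not overlap each other, and a match is a run of letters, not a shown site.

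Library totals ran from 2394513 to 8350887 counts (median 4364112), lower in Bern (2394513 to 4618395) than in Crick (3788206 to 8350887). A group with 0 counts of a gene allows up to 3 counts over its 4 libraries, which is 0.1215 to 0.2205 CPM in the neuronal groups. Floors and intervals cover counting error only, because the reads carry no molecular identifiers. Earlier work on these data had set 6 libraries apart: Bern colon non-neuronal 1 and 2, Bern SI non-neuronal 1, Crick colon non-neuronal 3, and library 2 of both Crick SI sorts. Calls that changed without them are given with and without them. Library values, overlaps, ranks, shares and spreads include them.

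All 6 genes were found mainly in non-neuronal nuclei, at means of 20.7 to 34.2 CPM, and at 0 to 4.10 CPM in neuronal nuclei. Fold changes below are neuronal over non-neuronal or colon over SI on the log2 scale, with SE, from edgeR's quasi-likelihood test adjusted over all genes tested, and a gene is called when the adjusted p is under 0.05. In RNA from many nuclei together, fewer mesothelial nuclei and less RNA per nucleus cannot be told apart.

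Msln stood at 0.781, 25.6, 33.7 and 4.53 CPM in the 4 Bern colon non-neuronal libraries and at 9.05, 13.6, 5.34 and 1.44 CPM in Crick colon. In SI it was 28.8, 6.96, 14.2 and 13.3 CPM in Bern and 42.1, 19.9, 52.1 and 59.4 CPM in Crick. The 4 Crick SI libraries were all above the 4 Crick colon libraries, whereas the Bern segments overlapped. Among neuronal libraries 10 of 16 had no count of Msln, including all 4 of Bern SI, and the highest, Crick SI 4, reached 2.20 CPM. Pooled over the group, non-neuronal nuclei of Bern SI held at least 77.6-fold more Msln than neuronal nuclei, and those of Crick SI 49.2-fold more (95% counting interval 32.3 to 78.8). In Crick colon the ratio was 11.4 (6.20 to 23.4), and there the lowest non-neuronal library, 1.44 CPM, was below the highest neuronal library, 1.46 CPM. The single count in Bern colon neuronal nuclei gives a ratio of 242.5 with an interval of 43.2 to 9613.

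Upk3b was 1.95, 27.9, 1.57 and 5.54 CPM in Bern colon and 16.5, 15.4, 4.67 and 10.2 CPM in Crick colon non-neuronal nuclei. The SI values were 0, 2.53, 68.5 and 31.2 CPM in Bern and 37.5, 24.7, 55.6 and 111.6 CPM in Crick. Bern SI therefore held both the only non-neuronal library without Upk3b and the second highest of all 16. Neuronal libraries had 0 to 1.62 CPM, with 6 of 16 at 0, and they overlapped the non-neuronal ones in Bern colon and Bern SI but not in Crick. Pooled ratios were 21.02 in Bern colon (95% interval 9.97 to 53.1), 59.0 in Bern SI (28.3 to 147.6) and 79.1 in Crick SI (50.4 to 131.7), and 110.2 in Crick colon on 2 neuronal counts (30.2 to 915.1).

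Upk1b, the other uroplakin gene, was 1.17, 4.33, 7.31 and 11.6 CPM in Bern colon and 14.8, 7.44, 5.79 and 5.63 CPM in Crick colon. Its SI values were 3.88, 53.5, 53.2 and 1.58 CPM in Bern and 42.7, 24.0, 54.7 and 55.8 CPM in Crick. Crick SI thus lay wholly above Crick colon, and 2 of the 4 Bern SI libraries were as high as Crick SI while the other 2 were as low as colon. Upk1b was absent from 12 of 16 neuronal libraries, and the 4 with counts were all of Crick SI, at 0.137 to 0.976 CPM. Non-neuronal nuclei held at least 133-fold more in Bern SI, at least 50.03-fold more in Crick colon and at least 29.4-fold more in Bern colon, and 91.3-fold more in Crick SI (95% interval 52.0 to 177.2). Sorts did not overlap for Upk1b in any stratum.

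Wt1, the transcription factor gene, was 3.90, 81.8, 15.1 and 8.31 CPM in Bern colon non-neuronal libraries and 17.6, 22.1, 3.78 and 6.35 CPM in those of Crick colon. In SI the Bern libraries had 55.01, 42.4, 6.12 and 8.58 CPM and the Crick libraries 46.7, 26.0, 59.3 and 64.3 CPM. Bern colon 2 carried more Wt1 than any other library, and the next in its group had 15.1 CPM. Neuronal libraries held 0 to 2.56 CPM with 8 of 16 at 0, and the sorts did not overlap in any stratum. The pooled ratio was 27.7 in Crick SI (95% interval 20.5 to 38.4) and 17.3 in Crick colon (9.94 to 32.9), and with 1 neuronal count each it was 435 in Bern colon (77.7 to 17220) and 383.2 in Bern SI (68.4 to 15180).

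Lrrn4 was 28.5, 0.650, 3.13 and 15.6 CPM in Bern colon and 17.9, 11.0, 4.67 and 4.43 CPM in Crick colon non-neuronal nuclei. Bern SI had 36.2, 0, 9.74 and 42.7 CPM, and Crick SI 42.0, 18.0, 60.004 and 96.1 CPM. Again Crick SI was above Crick colon in every library, by a narrow margin between 18.0 and 17.9 CPM, and Bern was scattered over both ranges. In neuronal libraries Lrrn4 was 0 to 1.95 CPM with 7 of 16 at 0, and it overlapped the non-neuronal range in both Bern strata. Pooled ratios were 19.5 in Bern colon (95% interval 9.22 to 49.2), 88.4 in Bern SI (34.2 to 326.4), 51.4 in Crick SI (35.2 to 78.4) and, on 3 neuronal counts, 54.8 in Crick colon (18.5 to 268.2).

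Krt19, the keratin gene, was 16.4, 49.2, 43.1 and 31.7 CPM in Bern colon and 61.2, 12.1, 39.2 and 120.5 CPM in Crick colon. In SI it was 19.1, 24.1, 1.95 and 19.0 CPM in Bern and 31.8, 12.1, 25.6 and 40.2 CPM in Crick. Here the colon means were the higher ones, 58.3 ± 46.1 CPM in Crick and 35.1 ± 14.4 in Bern against 27.4 ± 11.8 and 16.01 ± 9.67 in SI (SD, n = 4), with overlap between segments at each facility. Neuronal nuclei of Bern held Krt19 in 1 of 8 libraries, at 0.502 CPM, and those of Crick in 8 of 8, at 0.657 to 4.10 CPM. Non-neuronal nuclei had at least 169.5-fold more in Bern colon, 27.9-fold more in Crick colon (95% interval 20.8 to 38.2), 18.3-fold more in Crick SI (13.2 to 26.1) and, on 2 neuronal counts, 119-fold more in Bern SI (32.6 to 988.3). The sorts did not overlap for Krt19 in any stratum.

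**Figure D1:**
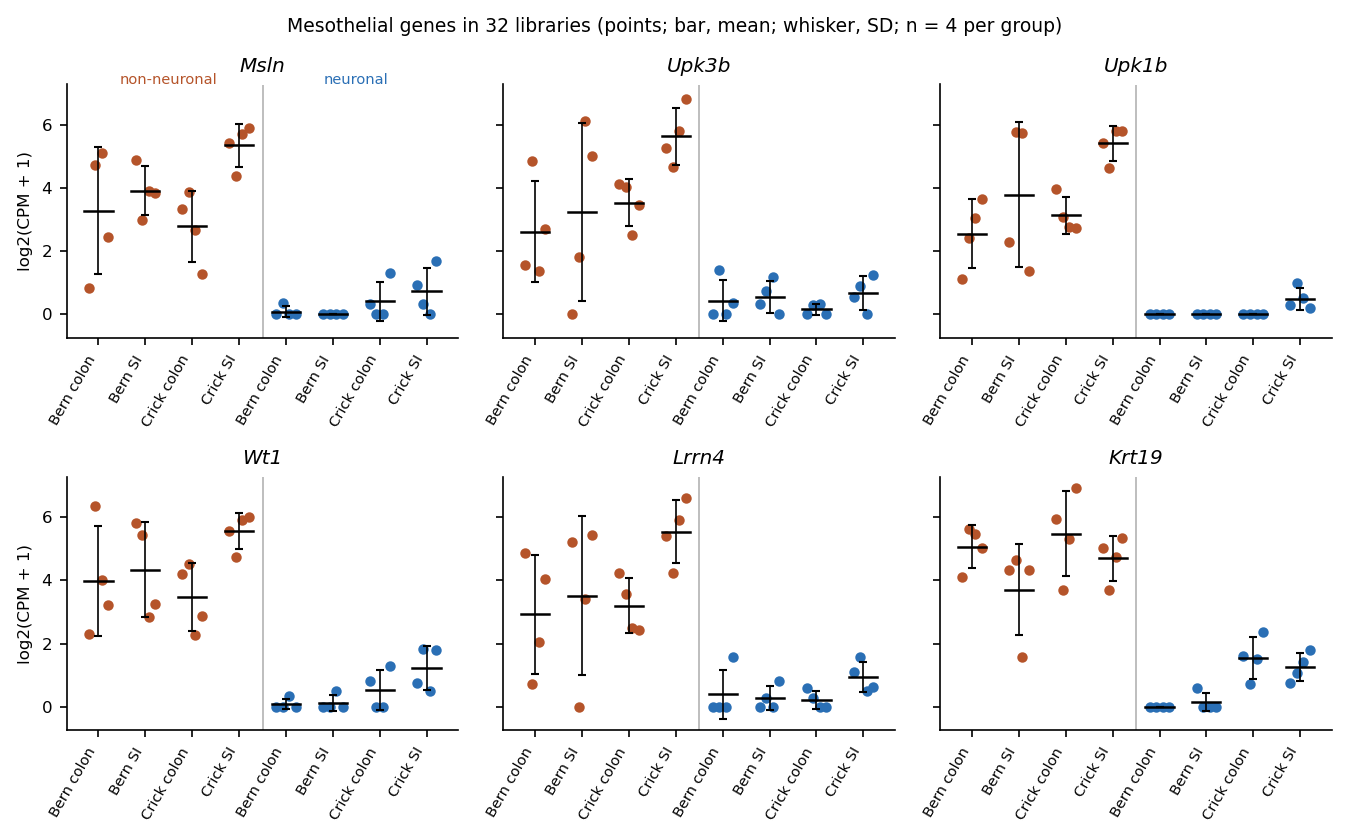
Each panel plots 1 gene as log2(CPM + 1) on the vertical axis against the 8 groups on the horizontal axis, 4 non-neuronal groups (brown) left of the line and 4 neuronal groups (blue) right of it. Points are libraries, bars the mean and whiskers the SD (n = 4 per group). The neuronal libraries lie near 0 for all 6 genes, the Crick SI non-neuronal libraries are the highest group for every gene but Krt19, and Bern non-neuronal libraries are widely spread.

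The first comparison was between the sorts. Over the 4 strata 6 of 6 genes were called lower in neuronal nuclei, where 43.5% of the 21521 genes tested were called in either direction and 4646 were called lower. None of the 6 had enough counts to be tested in neuronal libraries alone. They entered this test through the non-neuronal libraries, where they are high, so the direction of a call was close to fixed beforehand. The fitted changes were -6.58 ± 0.68 for Msln (edgeR adjusted p = 6.28e-10), -5.67 ± 0.66 for Upk3b (4.95e-09), -6.42 ± 0.61 for Wt1 (4.79e-11) and -5.49 ± 0.67 for Lrrn4 (1.03e-08). For Upk1b the change was -8.14 ± 0.71 (edgeR adjusted p = 1.2e-10) and for Krt19 -6.52 ± 0.51 (1.25e-12). Values for Msln, Upk1b and Krt19 depend on the prior count of the fit, because at least 1 neuronal group had no count of them. The median of the 6 was -6.47, or -5.84 from pooled CPM with those groups set at the floor, beside -0.01 over all genes tested.

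The same held stratum by stratum, with the same limit on the direction of a call. Called lower were 6 of 6 genes in Bern colon (25.2% of all genes tested called), Bern SI (30.1%), Crick colon (18.6%) and Crick SI (11.6%). Medians of the 6 fitted changes were -7.55, -7.60, -5.20 and -5.61, and those over all genes tested were between -0.07 and 0.04. The least certain call was Upk3b in Bern colon, -4.20 ± 1.26 (edgeR adjusted p = 0.0130), which rested on Bern colon non-neuronal library 2. Without that library it was -2.53 (edgeR adjusted p = 0.135), and without the 6 libraries set apart -2.81 (0.0873). Upk1b, Wt1 and Krt19 were lower without overlap in each of the 4 strata, 3 of 6 genes, against 2.37% of all genes tested.

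Summed over the 6 genes, neuronal libraries kept 1.03% of the non-neuronal level in Bern colon, 0.744% in Bern SI, 3.21% in Crick colon and 2.17% in Crick SI. For 8 smooth muscle genes (Myh11, Acta2 and Actg2 the first of them) the kept share was 6.21%, 5.32%, 6.75% and 9.48%, and for 8 fibroblast genes 5.80%, 3.36%, 3.51% and 5.54%. The kept share of the 6 genes was below these lists in all 4 strata, but not below every list. A list of 6 endothelial genes kept 0.357% in Bern colon and 1.94% in Crick colon, and 12 epithelial genes kept 0.870% and 0.964%, all under the share of the 6 genes there, while in SI these lists kept 6.52% to 22.7%. The 15 other mesothelial genes described further on kept 4.78%, 2.38%, 11.7% and 2.95%. Those sums are mostly Muc16: without it the list kept 17.6%, 14.6%, 21.5% and 10.5%, more than the smooth muscle and fibroblast lists in each stratum. These differences were not tested. The highest neuronal sums of the 6 genes were in Crick SI, 2.93 to 9.20 CPM, against 0 to 2.23 CPM in Bern colon.

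None of the 6 genes had enough counts to be tested by edgeR among neuronal libraries alone. That was so for colon against SI (5.51% of 17419 genes called) and for Bern against Crick (7.72%), so a count of 0 called there is not a result about the 6 genes. For Bern against Crick, DESeq2, which could test 4 of the 6, called Krt19 lower in Bern than in Crick neuronal nuclei (log2 fold change -4.37, DESeq2 adjusted p = 0.00171), and limma-voom, under the same filter as edgeR, tested none. With all 32 libraries in 1 edgeR fit, Krt19 (-4.74, edgeR adjusted p = 0.00119) and Wt1 (-3.39, 0.0409) were lower in Bern. Wt1 had a count in 2 of 8 Bern and 6 of 8 Crick neuronal libraries, which were also the deeper ones. For colon against SI in neuronal nuclei DESeq2 could test only Wt1 and Krt19, and it called 0 of them.

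Between segments the non-neuronal nuclei gave 5 lower values in colon and 1 higher. Upk1b fell by 2.60 ± 0.63 (edgeR adjusted p = 0.0117), and it was the only 1 of 6 genes called, where 9.32% of 19164 genes were. Upk3b had -2.10 ± 0.76 (edgeR adjusted p = 0.0833), Lrrn4 -1.98 ± 0.72 (0.0865), Msln -1.49 ± 0.59 (0.118) and Wt1 -1.27 ± 0.59 (0.191). Krt19 had 0.82 ± 0.48 (edgeR adjusted p = 0.321). The median of the 6 was -1.74 beside 0.02 over all genes tested. Marker lists of other cells moved in the same comparison: 4 of 6 endothelial genes were called higher in colon (median 2.01), 3 of 8 pan-neuronal (2.05), 2 of 6 macrophage (1.17) and, with 1 lower, 4 of 11 epithelial genes (1.46). Among 8 fibroblast genes 1 was called higher and 3 lower (-0.59), and among 8 smooth muscle genes 2 were called lower (-0.24). The part of these shifts in the lower colon values of the 6 genes was not tested. The Upk1b value kept its call with any 1 of the 16 libraries left out (edgeR adjusted p from 0.00287 to 0.0323). It missed the threshold with the replicate number as a block (-2.40, edgeR adjusted p = 0.0523) and without the 6 libraries set apart (-2.42, 0.0715), a fit that called Upk3b instead (-2.93, 0.0342).

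Single libraries also moved 3 other genes past the threshold. Leaving out Bern colon library 2 brought calls for Upk3b (-2.91, edgeR adjusted p = 0.0240) and Wt1 (-2.07, 0.0259). Leaving out Bern SI library 2 did so for Upk3b (-2.28, edgeR adjusted p = 0.0482) and Lrrn4 (-2.19, 0.0212), and leaving out Bern SI library 1 for Upk3b (-2.31, 0.0219). With 1 library left out, the number called over both facilities was thus 1 to 3, always lower in colon. The replicate block left no gene called.

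Within Crick, Msln, Upk3b, Upk1b, Wt1 and Lrrn4 were lower in every colon library than in any SI library, 5 of 6 genes against 3.27% of all genes tested. Their fitted changes were -2.70 ± 0.87, -2.41 ± 1.08, -2.56 ± 0.88, -2.13 ± 0.86 and -2.62 ± 1.04 in that order, with edgeR adjusted p of 0.341 to 0.731. So 0 of 6 genes were called, where 0.256% of genes were, while 5 had an unadjusted edgeR p under 0.05, and DESeq2 and limma-voom called 0. In Bern 0 of 6 were lower without overlap (1.42% of genes) and 0 were called (10.1%): Upk1b had -2.63 ± 0.89 (edgeR adjusted p = 0.0613), Upk3b -1.79 ± 1.06, Lrrn4 -1.34 ± 1.00, Wt1 -0.42 ± 0.83 and Msln -0.28 ± 0.83. There 1 gene had an unadjusted edgeR p under 0.05, DESeq2 called 1, Upk1b (-2.65, DESeq2 adjusted p = 0.0193), and limma-voom called 0. The Bern sign of Msln turned without colon library 1 (0.17) or 4 (0.04), without SI library 1 (0.12), without the 6 libraries set apart (0.38) and with library totals in place of TMM (0.04), and that of Wt1 without colon library 1 (0.03) or SI library 1 (0.04).

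Whether the segment difference itself differed between facilities was tested as an interaction. For that, 0 of 6 genes and 0% of 19164 genes were called, with 0 of 6 and 2015 of all genes at an unadjusted edgeR p under 0.05; DESeq2 called 0 of 6 and 399 genes, limma-voom 0 and 0. Msln came nearest, with a Bern minus Crick difference of 2.42 ± 1.18 (edgeR adjusted p = 0.479). The interaction of segment with sort called 0 of 6 genes (6.48% of 21521 genes called) with 0 at an unadjusted edgeR p under 0.05, and DESeq2 and limma-voom also called 0. It could not be estimated for Upk1b, absent from 3 of the 4 neuronal groups.

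Facilities gave no call for these genes in non-neuronal nuclei: 0 of 6 over both segments (9.29% of genes called), 0 in colon (1.07%) and 0 in SI (4.44%), with 0 at an unadjusted edgeR p under 0.05 and 0 called by DESeq2 or limma-voom in each. Over both segments the Bern over Crick changes ran from -0.68 ± 0.73 for Upk3b to 0.24 ± 0.58 for Wt1. In SI all 6 had a negative value, from -1.30 ± 0.83 for Msln to -0.44 ± 0.83 for Upk1b. In colon Msln (1.12 ± 0.84), Wt1 (1.099 ± 0.84) and Lrrn4 (0.19 ± 0.99) had positive values, and Krt19 (-0.78 ± 0.68) had the lowest. The sign of Wt1 turned without Bern colon library 2, to -0.52 in colon and -0.55 over both segments, and without the 6 libraries set apart, to -0.44 and -0.80. Over both segments it also turned with limma-voom (-0.34). Signs of Msln over both segments and of Upk3b and Lrrn4 in colon turned under other alternatives, with values from -0.60 to 0.16.

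Ranked by mean CPM, Crick SI non-neuronal nuclei came first for the 5 genes other than Krt19: 43.4 ± 17.2 for Msln, 57.3 ± 38.3 for Upk3b, 44.3 ± 14.8 for Upk1b, 49.1 ± 17.1 for Wt1 and 54.0 ± 32.9 for Lrrn4 (SD, n = 4). The range of the next group in order, Bern SI for 4 of them and Bern colon for Msln, overlapped it in each case. For Krt19 the order was Crick colon, Bern colon, Crick SI and Bern SI, with each neighbour overlapping the next. The step from the lowest-ranked non-neuronal to the highest-ranked neuronal group showed no overlap for Upk3b, Upk1b, Wt1 and Lrrn4, and overlap for Msln and Krt19. This step joins groups of different strata and leaves out higher-ranked groups, so it differs from the overlap within strata given above. Upk3b and Lrrn4 reached 0 CPM in Bern SI non-neuronal nuclei, which ranked higher, and Krt19 had no overlap within any stratum. Per kilobase of exon over the 16 non-neuronal libraries, mean levels were 18.4 CPM for Krt19, 10.4 for Upk1b, 7.35 for Upk3b, 6.75 for Msln, 6.57 for Lrrn4 and 4.72 for Wt1.

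Beyond their means, the facilities differed in how tightly the 5 genes other than Krt19 kept together. In each Crick SI library the highest of the 5 was 1.15 to 2 times the lowest in CPM. In Crick colon this ratio was 1.53 to 7.08. Bern colon libraries had ratios of 3.44 to 126, and libraries 3 and 4, not among those set apart, had 21.5 and 3.44. In Bern SI the ratio was 11.2 and 27.0 in the libraries with all 5 genes, while library 1 had no Upk3b and library 2 no Lrrn4. The gene that led changed from library to library: in Bern SI it was Wt1, Upk1b, Upk3b and Lrrn4 in turn, with 43.9% to 50.8% of the 5-gene sum. In Bern colon, Lrrn4 made up 78.5% of the sum in library 1 and Wt1 58.3% in library 2.

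The 5-gene sum itself was steadier in Bern SI, at 97.3 to 151.7 CPM, than its parts. It was 36.3 to 140.3 CPM in Bern colon, 24.3 to 75.9 in Crick colon and 112.6 to 387.1 in Crick SI. The SD of log2(CPM + 1) within a group, as a median over the 5 genes, was 1.75 in Bern colon, 2.30 in Bern SI, 0.87 in Crick colon and 0.68 in Crick SI. Over all 14351 genes with a mean of at least 5 CPM in non-neuronal libraries the medians were 0.93, 1.26, 0.46 and 0.51, so the wider spread in Bern was shared by genes at large. Bern totals were lower, and the part of depth in this was not tested.

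**Figure D2:**
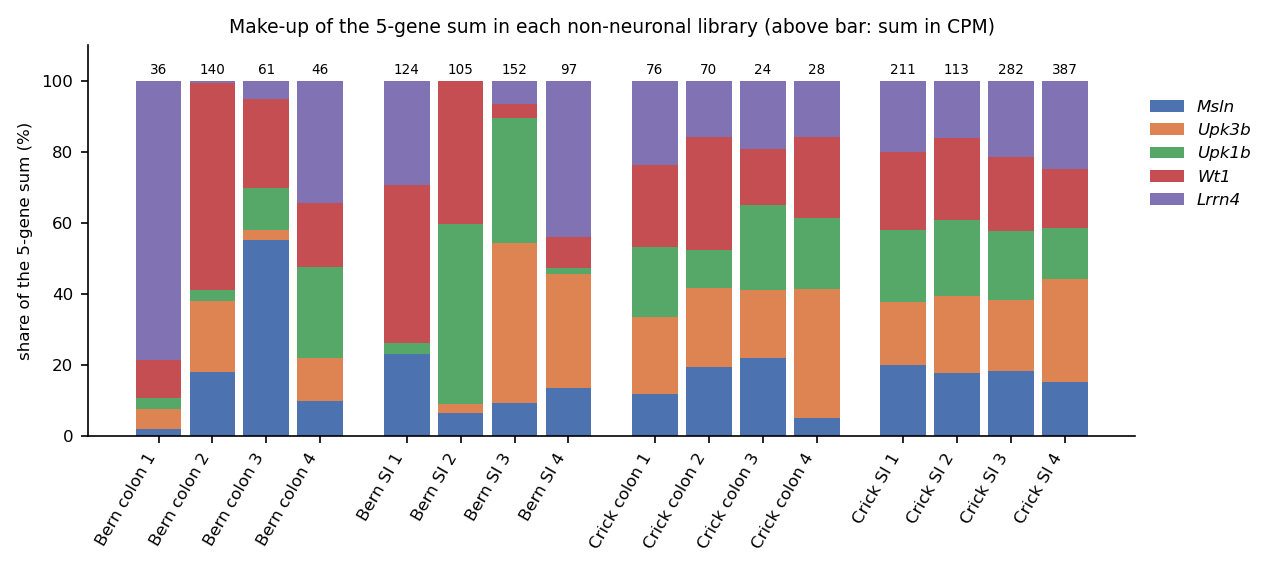
Stacked bars give the share in percent (vertical axis) of Msln, Upk3b, Upk1b, Wt1 and Lrrn4 in their summed CPM for each of the 16 non-neuronal libraries (horizontal axis), with the sum in CPM above each bar. Crick SI bars are divided almost evenly, while in Bern a single gene takes up to 78.5% of the sum.

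In Crick SI the 6 genes shared their extremes: library 4 was the highest and library 2 the lowest for 6 of 6. Of the libraries between, Krt19 was higher in library 1 and the other genes in library 3. Library 2 had the largest mitochondrial share of its group, 23.6% of counts against 6.28% at the lowest, and the largest smooth muscle sum, 13950 CPM against 6718 CPM in library 4. The part of these in the ranking was not tested. In the other 3 non-neuronal groups, Crick colon and both Bern segments, the highest library differed among the 6 genes.

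Krt19 did not go with the other 5 genes across segments, and the colon libraries held more gut epithelial RNA. A sum of 12 epithelial genes, such as Epcam, Cdh1 and Vil1, was 1802 to 13460 CPM in Bern colon and 2950 to 9888 CPM in Crick colon, but 447.8 to 938 CPM in Bern SI and 197 to 1341 CPM in Crick SI non-neuronal nuclei. In the 4 Crick colon libraries Krt19 (61.2, 12.1, 39.2, 120.5 CPM) had the same order as Epcam, a surface protein of epithelial cells (139.9, 29.8, 74.1, 169.9 CPM), and as the adhesion gene Cdh1 (185.6, 35.4, 112.2, 233 CPM). That order was not shared by the whole epithelial list, whose sum was 2950, 3385, 7454 and 9888 CPM, nor by Krt20, a keratin gene of the gut lining (28.1, 8.75, 8.46, 24.0 CPM). Msln there was lowest (1.44 CPM) where Krt19 was highest and highest (13.6 CPM) where Krt19 was lowest. In Bern colon Krt19 and Msln were both lowest in library 1 and next lowest in library 4, and Epcam was also lowest in library 1 (8.98 CPM) but next to highest in library 4 (152.9 CPM). In Crick SI library 4, by contrast, Krt19 and Msln were at their highest, 40.2 and 59.4 CPM, and Epcam at its lowest, 6.14 CPM. Bern SI library 2 had 24.1 CPM of Krt19, the most of its group, and no Epcam.

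Other keratin genes differed from Krt19 too. Krt8, a usual partner of the acidic keratins, was 0, 0.317, 0 and 0 CPM in Bern SI, while Krt19 was 1.95 to 24.1 CPM in the same libraries. Krt7 (1.90 to 23.3 CPM in Bern SI) was present in all 16 non-neuronal libraries. The part of epithelial RNA in the Krt19 values was not tested.

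**Figure D3:**
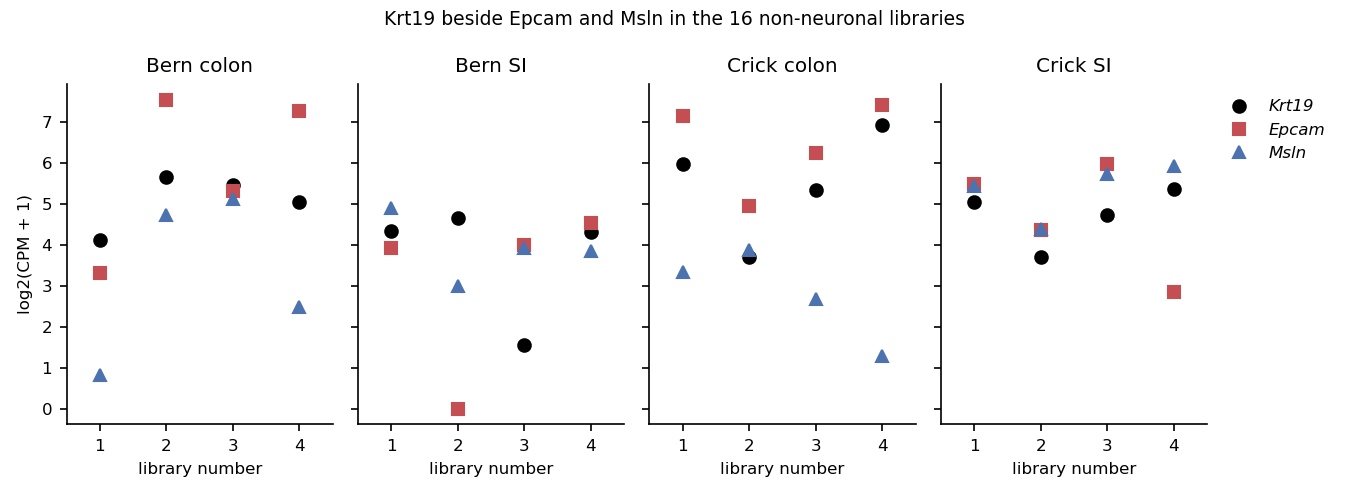
Levels as log2(CPM + 1) (vertical axis) of Krt19 (black circles), the epithelial gene Epcam (red squares) and Msln (blue triangles) against library number (horizontal axis) in the 4 non-neuronal groups. In Crick colon Krt19 and Epcam have the same order, which the sum of the 12 epithelial genes does not share, and Msln is lowest in library 4 (1.44 CPM). In Crick SI library 4 Krt19 is high beside Msln while Epcam is at 6.14 CPM.

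A list of 15 other mesothelial genes was mostly lower in neuronal nuclei too, but was less uniform than the 6. For colon against SI in non-neuronal nuclei its median was -0.75, against -1.74 for the 6. Between sorts 12 were called lower and 1 higher in neuronal nuclei, with a median of -4.47. Muc16, which encodes the mucin that binds mesothelin, averaged 1041 CPM without EGFP and 9.27 CPM with it, a change of -6.68 ± 0.31 (edgeR adjusted p = 6.30e-19). Bnc1, a zinc finger gene, had -6.29 ± 0.72, and Rspo1, which encodes an enhancer of Wnt signalling, -5.05 ± 0.45. The exception, Calb2, encodes calretinin, a calcium-binding protein of mesothelium and of enteric neurons, and it had 2.74 ± 0.49 (edgeR adjusted p = 1.59e-05). Pdpn was not called (0.06 ± 0.53). The change of Slpi over the strata could not be estimated, because Bern colon non-neuronal and Bern SI neuronal nuclei had no count of it. Its means were 7.24 CPM in non-neuronal and 0.559 CPM in neuronal libraries. By stratum Slpi was called lower in neuronal nuclei only within Bern SI (edgeR adjusted p = 0.00194).

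Between segments in non-neuronal nuclei 5 of the 15 were called lower in colon: Muc16 (-2.28 ± 0.34, edgeR adjusted p = 0.000274), Rspo1 (-1.76 ± 0.42), Aldh1a2 (-2.24 ± 0.62), Efemp1 (-1.90 ± 0.54) and Slpi. Aldh1a2 encodes an enzyme that makes retinoic acid and Efemp1 a matrix protein. Slpi, a protease inhibitor gene, had no count in the 4 Bern colon libraries and a mean of 9.82 CPM in Bern SI, so its fitted value is not given. Called higher in colon were Calb2 (3.07 ± 0.91) and Krt8, whose means were 53.5 CPM in Bern colon against 1 count in all of Bern SI, and 48.5 against 17.1 CPM in Crick. Muc16 was the 1 of these 15 called within Crick (-2.92 ± 0.50) and it was also called within Bern (-1.64 ± 0.48). It was 43.6 to 359.8 CPM in Crick colon against 750.5 to 1812 CPM in Crick SI, and 544.9 to 1185 against 1228 to 2320 CPM in Bern, without overlap at either facility. Between facilities in non-neuronal nuclei Muc16 (1.21 ± 0.33) and Rspo1 (1.95 ± 0.43) were called higher and Bnc1 (-2.50 ± 0.75) and Krt8 lower in Bern.

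**Figure D4:**
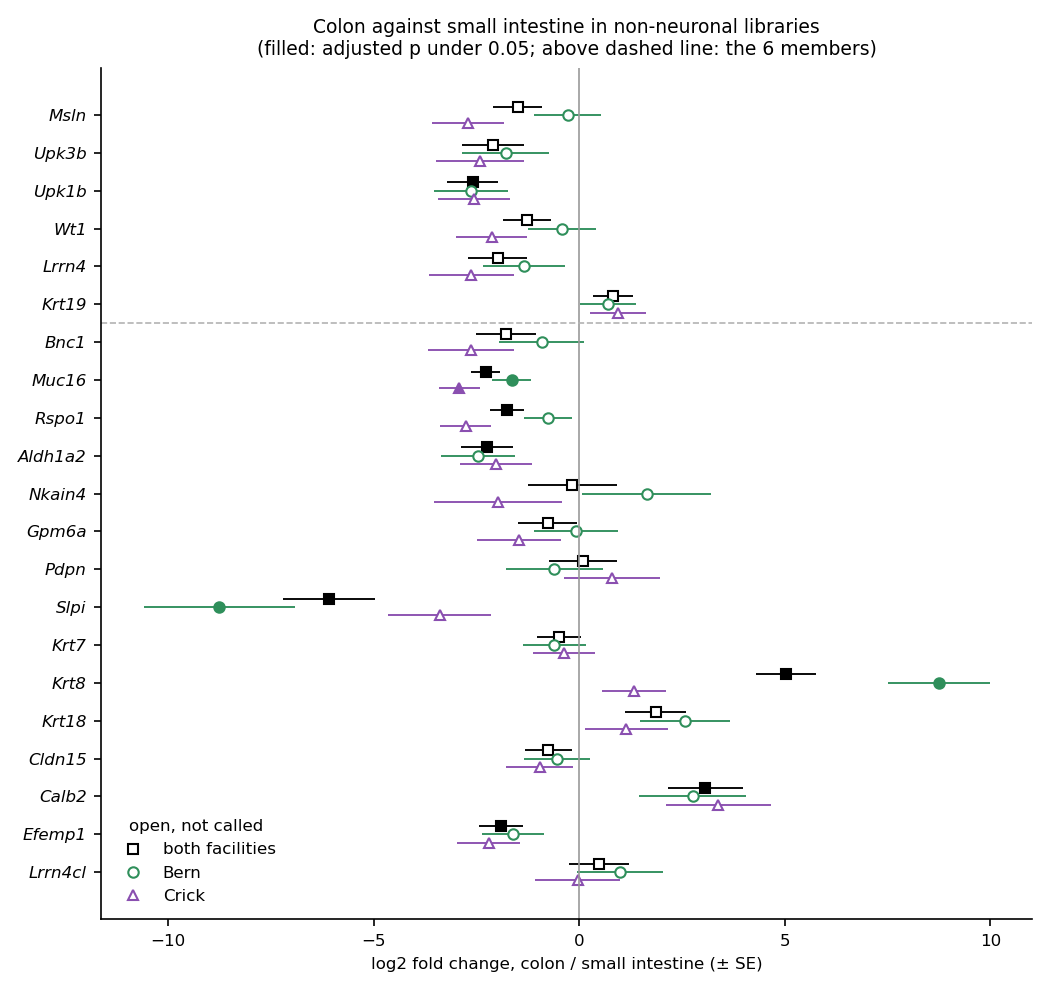
Log2 fold change of colon over small intestine (horizontal axis, whiskers SE) for the 6 genes above the dashed line and 15 other mesothelial genes below it, over both facilities (black squares), in Bern (green circles) and in Crick (purple triangles). Filled symbols have an edgeR adjusted p under 0.05: among the 6, only Upk1b over both facilities, while Muc16 is filled at each facility. The Bern values of Slpi and Krt8 rest on groups with 0 and 1 count.

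Family members of the 6 genes were compared on the same libraries. As a mean over the 4 strata, Lrrn1, Lrrn2 and Lrrn3, the other genes of the Lrrn family, were called higher in neuronal nuclei. The changes were 1.95 ± 0.45 (edgeR adjusted p = 0.000523), 1.89 ± 0.45 (0.000607) and 1.47 ± 0.37 (0.00129), whereas Lrrn4 was called lower. By stratum Lrrn1 was called only in Crick colon and Crick SI, Lrrn2 only in Bern colon and Bern SI, and Lrrn3 in none. The highest Lrrn1 value of all libraries, 161.1 CPM, was in a Bern SI non-neuronal library. Mean levels were 52.0 CPM in the neuronal sort against 18.8 CPM in the other for Lrrn1, 20.7 and 5.70 for Lrrn2, 41.0 and 14.8 for Lrrn3, and 0.480 and 24.4 for Lrrn4. The uroplakin genes Upk1a, Upk2 and Upk3a and the gene Upk3bl, next to Upk3b on chromosome 5, were too low to be tested, with highest single values of 11.6, 1.51, 0.184 and 0.372 CPM. Reads shared by Upk3b and Upk3bl could have been divided between them in counting, and Upk3bl received at most 3 counts in any group.

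Mslnl, a homologue of Msln that ends next to it on chromosome 17, was called lower in neuronal nuclei (-4.83 ± 0.81, edgeR adjusted p = 6.55e-06) and in colon (-3.06 ± 0.95, 0.0456). Stratum by stratum, the sorts gave a call for Mslnl only in Bern SI (edgeR adjusted p = 0.000261). The segments gave one within Bern (0.0427) and none within Crick. The mean of Mslnl was 23.2 ± 28.3 CPM in Bern SI and 1.11 to 2.54 CPM in the other 3 non-neuronal groups (SD, n = 4). Wt1os fell with Wt1 between sorts: its mean was 6.31 CPM in EGFP- and 0.311 CPM in EGFP+ libraries (edgeR adjusted p = 2.17e-06). Wt1os was called lower in every stratum but Crick SI (edgeR adjusted p = 0.249). The sources used here do not say that strand was used in counting, so reads at the shared edge of Wt1 and Wt1os cannot be assigned with certainty.

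**Figure D5:**
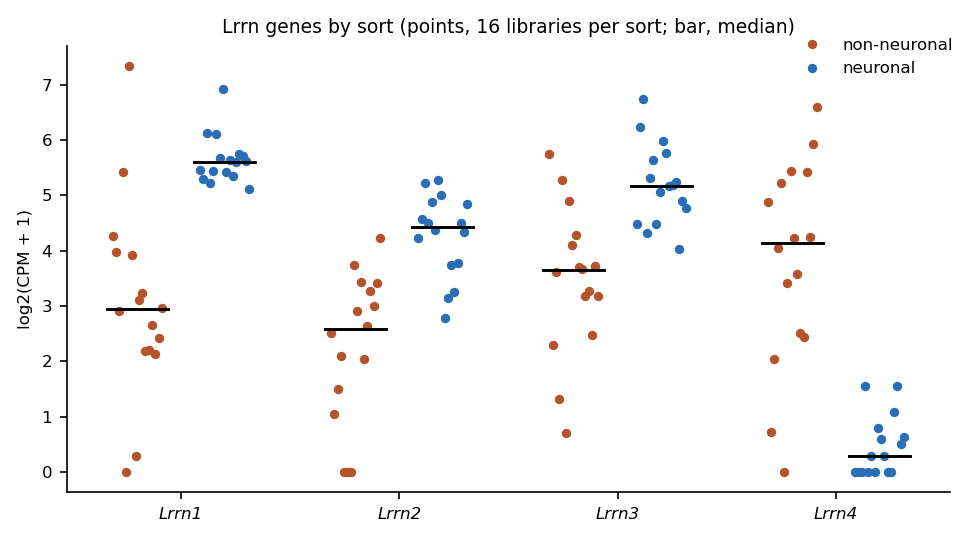
Levels as log2(CPM + 1) (vertical axis) of the 4 Lrrn genes (horizontal axis) in 16 non-neuronal (brown) and 16 neuronal (blue) libraries, with bars at the median. Lrrn1, Lrrn2 and Lrrn3 have higher medians in neuronal libraries, with overlap between the sorts, and Lrrn4 lies at 0 to 1.95 CPM in neuronal libraries.

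Finally, the genes with the most similar pattern were listed, by the root mean square difference of centred log2(CPM + 1) over the 16 non-neuronal libraries among 14351 genes. Nearest to Msln were Serpinb6b (0.803), Ildr2 (0.866), Aldh1a2 (0.911), C3 (0.962) and C230071H17Rik (0.993). Wt1 itself was 0.972 from Msln, with 4 genes nearer to Msln and 8 nearer to Wt1, so this pair was the closest among the 6. For Wt1 the 5 nearest were Cdh11 (0.832), Csf1 (0.866), Gm37452 (0.906), Gm45871 (0.920) and Arhgap28 (0.939). The list for Upk3b was C2 (0.934), Zfp185 (1.08), Rhou (1.12), 1700047M11Rik (1.16) and Dhrs4 (1.18), and that for Upk1b Cxcl14 (0.908), 2810402E24Rik (0.987), Plscr4 (0.992), Gm37195 (0.999) and Wnt5a (1.03). Lrrn4 was nearest to Smtnl2 (0.806), Pdzrn4 (0.875), Gpm6a (0.984), Zdbf2 (0.997) and ENSMUSG00000087594 (1.01). Krt19 had Retreg2 (0.670), Alkbh1 (0.687), Ddx47 (0.689), Gtf3c6 (0.692) and Xbp1 (0.695). Of the 30 genes so listed only Aldh1a2 and Gpm6a were in the list of other mesothelial genes, and the libraries share depth and facility, so nearness is a description of these 16 libraries.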

How the data were processed

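The authors deposited a single table, with RSEM's expected counts by Ensembl identifier in 32 columns, per the file headers, which name RSEM gene results. The submitters' processing notes name RSEM 1.3.0, STAR 2.5.2, DESeq2 1.10.1 and GRCm38, with no order given. Per the labels' protocols cDNA came from a NuGEN Ovation kit, and sequencing was single-end. Expected counts were rounded to whole counts. Symbols, positions and exon lengths came from GENCODE M21 by identifier (51633 of 51912 matched), promoters from RefSeq (GRCm38.p6, 2 of 6 genes).

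The members, lists and tests were chosen with earlier results of these data known. Fits used edgeR 4.0.16 in R 4.3.3: filterByExpr on the groups, TMM, group means, the quasi-likelihood test, Benjamini-Hochberg adjustment over all genes tested, threshold 0.05. Comparisons across sorts used all 32 libraries (21521 genes), the others the 16 of their sort (19164 non-neuronal, 17419 neuronal), in 15 comparisons. SE is the fold change over the root of the test statistic. DESeq2 1.42.0 and limma-voom (limma 3.58.1), other scalings, no filter, the replicate block, leaving out each library, and leaving out 6 were alternatives. CPM is the expected count per 1000000 counts of the library. All 6 genes were named in every comparison, called genes of the 2 related lists could be, and the 5 nearest genes per member. The fit was tested on simulated data for colon against SI in non-neuronal nuclei only, with the same spread set for every gene. Comparisons between sorts and groups without counts were not simulated.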

Additional observations from a re-analysis of the deposited data

Results flagged for a closer look

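In 3 of 37 sets of 4 libraries with over 3 counts of a gene, 1 library stood apart from the rest by more than Dixon's 95% limit for 4 samples. Chance gives about 1 in 20 for normally distributed values, which these low counts need not be. Upk3b was 27.9 CPM in Bern colon non-neuronal library 2 against 1.57 to 5.54 CPM in the others, a gap of 0.849 of the range. Wt1 was 81.8 CPM in the same library against 3.90 to 15.1 CPM (0.856). Lrrn4 was 1.95 CPM in Bern colon neuronal library 4 against 0 in the others (1.000), the value that any set with only 1 non-zero library takes.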

How the results depend on the processing

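Of the 15 counts of called genes, the 5 between sorts stayed at 6 of 6 or within 1.5 times under every alternative run. Colon against SI in non-neuronal nuclei (1 called) had 2 with limma-voom, 3 without the filter on low counts, 0 with the replicate block, and 1 to 3 with 1 library left out. In Bern alone (0 called) it had 1 with DESeq2, 1 without the filter and 0 to 1 with 1 library left out. Bern against Crick in neuronal nuclei (0 tested) had 1 with DESeq2, 1 without the filter and 2 with all 32 libraries in 1 fit. The cause was not tested, beyond that no filter and DESeq2 test more genes. The other 7 counts were the same throughout. Of 31 called values for single genes none changed sign, and of 976 such fits with 1 library left out 975 kept the call. The replicate block, the number within its facility, ended the Upk1b call (adjusted p = 0.0523) and changed no other call. It could not be fitted for Bern against Crick, where blocks lie within facilities. The labels do not say that the numbers pair the samples. For each gene its group mean was taken off the log2 CPM, and the remainders were correlated over genes. Between same-numbered libraries of the 2 sorts these correlations were 0.0175 to 0.0362 in Bern colon, -0.00221 to 0.0413 in Bern SI, 0.0680 to 0.273 in Crick colon and 0.0893 to 0.492 in Crick SI. Of the 4 neuronal libraries, 3 matched their own number best in Bern colon, 3 in Bern SI, 4 in Crick colon and 2 in Crick SI. This is a hint from the data of pairing between the sorts, and the main fit treated the libraries as unpaired. Precision is limited by the few counts of these genes: at most 46 per group in neuronal nuclei.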
